A study of Mus musculus with 6 samples.

Results

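Cav2, Rab5a and Atg3 are 3 genes of membrane traffic that are each read here from 1 probe, Cav2 from A_51_P279552, Rab5a from A_51_P117604 and Atg3 from A_51_P143855. Other probes of these genes, if the arrays hold any, were not used. The 3 probes were taken by name from the spots of the arrays that are not controls, and each one is printed in 10 spots on every array. They belong to 50 Agilent gene probes printed in this way, among 60823 probes in all. The genes were chosen by their array intensities and detection flags in sEV-BAT and sEV-WAT, so that the contrast of these groups is described below and is not tested.

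Small extracellular vesicles (sEVs) are membrane-bound particles that cells release and that carry RNA and protein. sEV-BAT came from interscapular brown adipose tissue and sEV-WAT from inguinal white adipose tissue of untreated male C57BL/6 mice, aged 6 to 8 weeks in the sample labels and 6 weeks in the methods. The fat was minced and cultured, and the sEVs were collected from the medium by ultrafiltration and ultracentrifugation. Each of the 3 replicates of a group pooled the sEVs of 10 mice, and the sources do not tell which sEV-BAT pool shares its mice with which sEV-WAT pool. Total RNA was labelled with a single dye (Cy3) from random primers and hybridized to an Arraystar Mouse LncRNA Array V4, a long oligonucleotide array for lncRNAs and mRNAs, giving 6 arrays. The RNA is that of a whole vesicle preparation, in which fewer vesicles of one source and less RNA per vesicle cannot be told apart. None of the 39 marker genes listed for brown, white and other adipose cell types was named in the files, so the tissue of origin could not be checked against markers.

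Cav2 encodes caveolin-2, a partner of caveolin-1 in the coat of caveolae, the small pits of the plasma membrane in which adipocytes are rich. Rab5a encodes a small GTPase that directs the fusion of endocytic vesicles and early endosomes, from which the multivesicular bodies that release exosomes mature. Atg3 encodes the E2-like enzyme that attaches proteins of the LC3 and GABARAP families to phosphatidylethanolamine, a step in the growth of the autophagosome membrane.

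The promoters are shown because the array values of Cav2 and Rab5a were both highest on sEV-BAT 2 and 3, and those of Atg3 were not. Cav2 was measured on these 2 arrays only, so its values do not tell more than this. The windows are from RefSeq for GRCm38.p6 and reach from 250 bases before to 50 bases after the annotated start of each gene, which all lie on the + strand. They span chr6:17280935-17281234 for Cav2, chr17:53478984-53479283 for Rab5a and chr16:45158579-45158878 for Atg3. Capitals mark the E-box CACGTG, the CRE letters TGACGTCA and the GC-box letters GGGCGG or their complement CCGCCC.
Cav2: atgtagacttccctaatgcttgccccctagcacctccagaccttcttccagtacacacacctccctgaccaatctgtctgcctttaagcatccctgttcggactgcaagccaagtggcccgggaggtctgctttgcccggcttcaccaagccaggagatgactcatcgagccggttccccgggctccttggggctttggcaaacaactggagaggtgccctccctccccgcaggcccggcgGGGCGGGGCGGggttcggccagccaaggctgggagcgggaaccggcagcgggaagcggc
Rab5a: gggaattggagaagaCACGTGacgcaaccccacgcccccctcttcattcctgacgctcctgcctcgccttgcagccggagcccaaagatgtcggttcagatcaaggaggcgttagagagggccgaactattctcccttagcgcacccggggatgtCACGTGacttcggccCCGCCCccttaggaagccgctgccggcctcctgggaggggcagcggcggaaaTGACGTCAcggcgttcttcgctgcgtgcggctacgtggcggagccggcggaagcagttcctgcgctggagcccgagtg
Atg3: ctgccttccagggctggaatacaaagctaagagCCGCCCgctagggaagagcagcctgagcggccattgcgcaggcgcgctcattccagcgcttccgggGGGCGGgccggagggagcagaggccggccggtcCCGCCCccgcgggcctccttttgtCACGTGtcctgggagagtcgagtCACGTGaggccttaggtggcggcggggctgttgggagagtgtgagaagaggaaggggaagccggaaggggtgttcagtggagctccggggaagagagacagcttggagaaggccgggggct

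All 3 windows were rich in G and C, at 64.3% for Cav2, 65.3% for Rab5a and 67.3% for Atg3, against a median of 52.7% over all 32851 promoters. The letters were searched on both strands and were chosen after the sequences had been seen. The E-box CACGTG stood at 2 places in Rab5a, with its first base at -235 and -95 from the start, and at 2 places in Atg3, at -94 and -71. Cav2 held none, and 7.15% of all promoters held at least 1. The longer form GTCACGTG, which contains the E-box, was found in both Rab5a and Atg3 and in 2.25% of all promoters. TGACGTCA stood in Rab5a alone, at -28, and in 1.79% of all promoters. The GC-box letters GGGCGG stood in all 3 windows and in 35.7% of all promoters, and TATAAA, present in 13.6% of all promoters, stood in none of the 3. CCAAT, on either strand, stood in Cav2 at -182 and in Rab5a at -246, not in Atg3, and in 37.4% of all promoters. Cav2 and Rab5a thus had CCAAT and the GC-box letters in common, and Rab5a and Atg3 the E-box and the GC-box letters. A link between these letters and the array values was not tested. These matches describe letters and not binding.

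The intensities given first are those the scanner software computed after background subtraction, averaged on the log2 scale over the spots of a probe and not normalized between arrays. A probe is called well above background on an array where most of its spots carry that flag of the software. The arrays differed in brightness as a whole. The median intensity over all probes was between 81.2 and 92.1 on the sEV-BAT arrays and between 57.1 and 58.5 on the sEV-WAT arrays, and 54759 to 56786 probes against 51589 to 52542 were well above background. No spot was saturated. The arrays came from 2 slides. Slide 1 held sEV-BAT 1 and all 3 sEV-WAT arrays, and slide 2 held sEV-BAT 2 and sEV-BAT 3. A difference between the slides and a difference between the first sEV-BAT pool and the others cannot be told apart.

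Cav2 was measured on 2 arrays only. Its intensity was 2.96 on sEV-BAT 1, 111 on sEV-BAT 2 and 82.6 on sEV-BAT 3, and it was 1.63, 1.72 and 1.71 on sEV-WAT 1, 2 and 3. All 10 spots were well above background on each of sEV-BAT 2 and 3, and none of the 10 on any other array. Cav2 was therefore bright on the arrays of slide 2 and not well above background on those of slide 1, whichever tissue these held. On sEV-BAT 2 the retained spots lay between 93.9 and 127, and on sEV-BAT 3 between 76 and 91.4. Cav2 stood at the 55.3 and 47.7 percentile of all probes on these arrays, near the middle of the array. Among all 60823 probes, 779 (1.28%) were well above background on both arrays of slide 2 and on no array of slide 1, and Cav2 was the only such probe among the 50 gene probes with 10 spots.

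After quantile normalization, which gives the 6 arrays the same distribution, the log2 values of Cav2 were 1.19, 6.60 and 5.98 in sEV-BAT and 1.55, 1.85 and 1.31 in sEV-WAT. The groups overlapped, because sEV-BAT 1 lay with the sEV-WAT arrays. The mean was 4.59 ± 2.96 in sEV-BAT and 1.57 ± 0.27 in sEV-WAT (SD, n = 3 each), a difference of 3.02 with a standard error of 1.41. Leaving out sEV-BAT 1 gave 4.72, and leaving out sEV-BAT 2 gave 2.02. Values not well above background, called below background here, only bound a level. Each sEV-WAT array was set to its lowest intensity well above background, or to that of Cav2 where this was higher. The mean of sEV-BAT, with sEV-BAT 1 kept at its measured 1.19, was then 2.46-fold higher, or 1.30 on the log2 scale. Since sEV-BAT 1 was itself below background, this is not a lower bound. With sEV-BAT 1 instead raised in the same way, the mean of sEV-BAT 2 and 3 was at least 12.2-fold higher than sEV-BAT 1.

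Of the 40 Cav2 spots of slide 1, 9 were called positive and significant by the software, a weaker flag than well above background. They were 5 of the 10 on sEV-BAT 1 and 1, 2 and 1 of the 10 on sEV-WAT 1, 2 and 3. At the fifth and the seventh of the 10 positions 6 of 8 spots had this flag, and at the 8 other positions 3 of 32, all on sEV-BAT 1. On the arrays of slide 1 the brightest spot beside these 2 positions had an intensity of 23300 to 53400, against 342 to 19300 at the others. The highest Cav2 intensity on slide 1 was 6.84 at these 2 positions and 4.26 at the others, both on sEV-BAT 1. The part of the neighbouring spots in these values was not tested. The background-subtracted signals of Cav2 on slide 1 spread around 0, from -3.7 to 6.68.

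Rab5a was well above background in all 60 of its spots. Its intensity was 34.7 on sEV-BAT 1, 69.3 on sEV-BAT 2 and 67.3 on sEV-BAT 3, and 20.2, 20 and 20.6 on sEV-WAT 1, 2 and 3. Before normalization every sEV-BAT array was thus brighter than every sEV-WAT array, and the arrays of slide 2 were the brightest. The difference was 1.43 with a standard error of 0.28 on the log2 scale, or 2.69-fold. After quantile normalization the log2 values were 4.71, 5.93 and 5.66 in sEV-BAT and 4.76, 4.73 and 4.65 in sEV-WAT. The value of sEV-BAT 1 now fell among those of sEV-WAT, 0.05 below the highest of them, and the groups overlapped. The mean was 5.43 ± 0.64 in sEV-BAT and 4.71 ± 0.06 in sEV-WAT (SD, n = 3 each), a difference of 0.72 with a standard error of 0.32, or 1.64-fold. Without sEV-BAT 1 the difference was 1.08, and without sEV-BAT 2 it was 0.47.

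Atg3 was well above background in all 60 of its spots as well. Its intensity was 40.8, 33.8 and 34.4 on sEV-BAT 1, 2 and 3 and 11.4, 14.6 and 13.1 on sEV-WAT 1, 2 and 3. Here the sEV-BAT array of slide 1 was the brightest and no sEV-BAT array came near an sEV-WAT array. The difference before normalization was 1.48 with a standard error of 0.15, or 2.79-fold. After quantile normalization the log2 values were 4.95, 4.88 and 4.58 in sEV-BAT and 4.02, 4.31 and 4.03 in sEV-WAT. The groups did not overlap, with 0.27 between the lowest sEV-BAT and the highest sEV-WAT array. The mean was 4.80 ± 0.20 in sEV-BAT and 4.12 ± 0.17 in sEV-WAT (SD, n = 3 each), a difference of 0.69 with a standard error of 0.15, or 1.61-fold. Rab5a and Atg3 had almost the same mean difference after normalization, but that of Rab5a came from the arrays of slide 2 and that of Atg3 from all 3 sEV-BAT arrays.

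**Figure D1:**
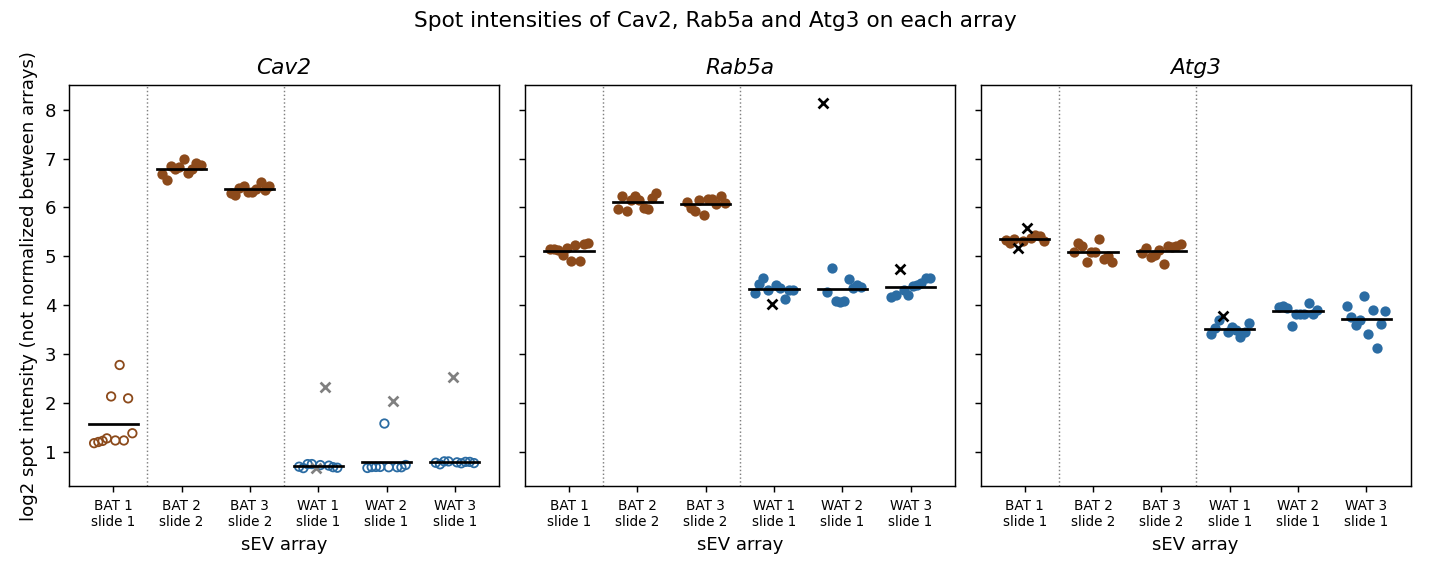
The vertical axis gives log2 spot intensity, not normalized between arrays, and each column is 1 array with its slide. Filled circles are spots well above background, open circles spots that are not, crosses spots marked as outliers and left out (grey where not well above background), and bars the mean of the retained spots. The spots of Cav2 lie between 93.9 and 127 on sEV-BAT 2 and between 76 and 91.4 on sEV-BAT 3 and near the floor on the other 4 arrays, whereas those of Atg3 are higher on all 3 sEV-BAT arrays.

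The choice of the 3 genes used this contrast, so the following counts are given only beside those of all probes. After quantile normalization 1 of the 3 genes, Atg3, had all sEV-BAT values above all sEV-WAT values, as did 14.5% of all probes compared. Without normalization Atg3 and Rab5a did, as did 70.1% of all probes. Cav2 was not counted here, since on sEV-BAT 1 and on all sEV-WAT arrays it was below background. Atg3 and Rab5a passed the filter on dim probes, which asks for detection well above background on 3 or more of the 6 arrays, and Cav2 did not. At the thresholds of the study, a fold change of at least 2 with an unadjusted p of at most 0.05, neither of these 2 genes was called, while 1.11% of the 54443 probes tested were called higher in sEV-BAT and 1.16% lower. At an adjusted p of at most 0.05 (limma, Benjamini-Hochberg over all probes tested) Atg3 was among the probes called higher, which made up 2.79% of those tested. Over 15 settings of the processing, this one included, Atg3 was past the adjusted threshold in 5 and Rab5a in 2. Both genes passed the thresholds of the study without normalization, where 8882 of the 54443 probes were called higher and 35568 were past the adjusted threshold. Rab5a passed them also without sEV-BAT 1, where 1241 probes were called higher and 1951 were past the adjusted threshold. Atg3 was past the adjusted threshold also with the 75th percentile subtracted, with outlier spots kept and with the median over spots, as were 3608, 4089 and 4142 probes. The adjusted call of Atg3 was lost on leaving out any 1 array, with differences from 0.61 to 0.80. It was also lost with slide as a block (a difference of 0.83), with replicate number as a block (0.69), with the median of the other gene probes subtracted (0.67) and with normexp background correction (0.20). Without sEV-BAT 3, without any 1 sEV-WAT array and with either block, no probe of the array was past the adjusted threshold. The loss in those settings is therefore not particular to Atg3. Without sEV-BAT 2, with the median subtracted and with normexp, 4502, 1818 and 7319 probes were past it.

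Differences on slide 1, where sEV-BAT 1 stood beside the 3 sEV-WAT arrays, were larger for Atg3 than for Rab5a under each scaling. After quantile normalization sEV-BAT 1 exceeded the mean of sEV-WAT by 0.83 for Atg3, and by 1.65 without normalization. For Rab5a the same differences were -0.01 (standard error 0.16 with slide as a block) and 0.78, so that its difference on slide 1 depended on the scaling. It was 0.30 with the 75th percentile of each array subtracted and 0.22 with the median of the other 47 gene probes with 10 spots subtracted. The matching differences of Atg3 were 1.17 and 1.10, higher in sEV-BAT under each scaling. Cav2 was below background on all arrays of slide 1 and its values there have no order. With 1 sEV-BAT array on slide 1, none of these differences has a replicate on the sEV-BAT side.

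**Figure D2:**
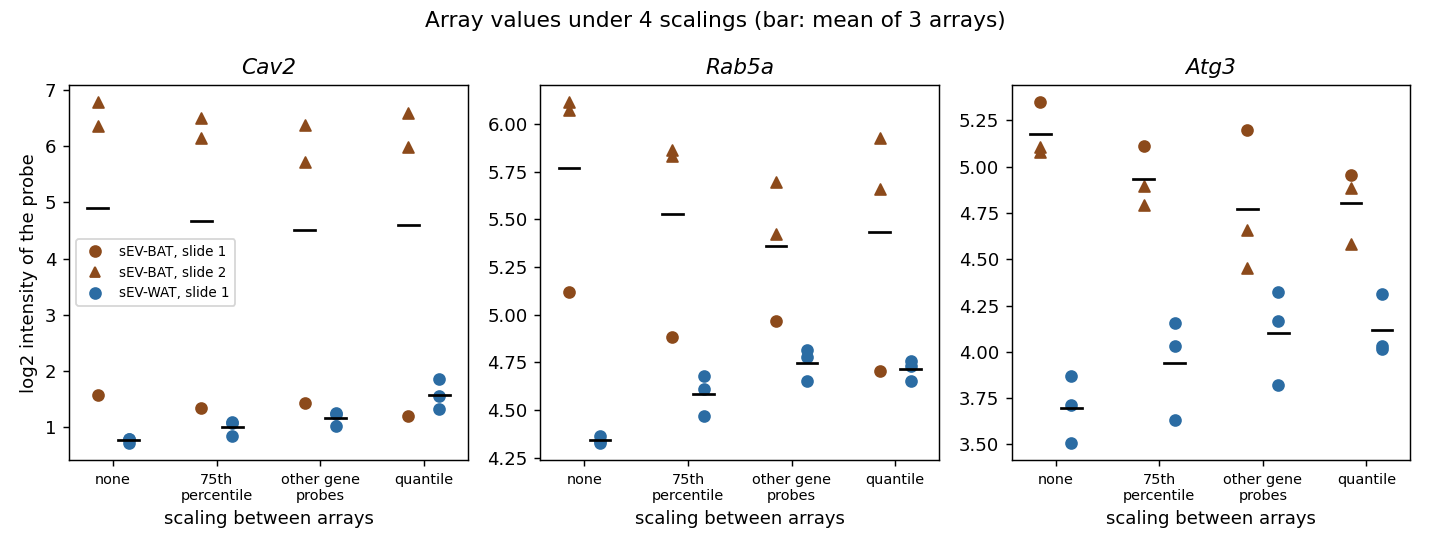
The vertical axes, which differ between the genes, give the log2 intensity of the probe, and the horizontal axis gives the scaling between arrays: none, 75th percentile subtracted, median of the other gene probes with 10 spots subtracted (both returned to the overall level), and quantile. Each symbol is 1 array (triangles slide 2) and bars are means of 3 arrays. The circles of Cav2 are below background and have no order. Atg3 is higher on each sEV-BAT array under each scaling, whereas sEV-BAT 1 for Rab5a moves from 0.78 above the mean of sEV-WAT without normalization to -0.01 after quantile normalization.

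Within sEV-BAT the 3 genes also differed in how far the pools of slide 2 lay from the pool of slide 1. The mean of sEV-BAT 2 and 3 exceeded sEV-BAT 1 by at least 3.61 for Cav2, the bound given above on the log2 scale, and by 1.09 for Rab5a, and the difference was -0.22 for Atg3 (log2, quantile-normalized). Over all probes tested the median of this difference was -0.04, and it was at least 1 for 939 probes (1.73%) and at most -1 for 324 (0.595%). Among the 40 gene probes with 10 spots and well above background on every array it reached at most 1.47, and Rab5a ranked 4 and Atg3 38. Cav2 is in neither set, since both leave out probes detected on the arrays of slide 2 alone, 779 (1.28%) of all 60823. Neither set therefore tells how uncommon the bound of Cav2 is. The difference was at least 1 for 5 of the 40, Rab5a included. The other 4 were Uhrf1bp1l, Carhsp1, Gpi1 and a probe with no gene name here, A_51_P237746. Gpi1 encodes glucose-6-phosphate isomerase of glycolysis. The mean of sEV-BAT minus that of sEV-WAT, 0.72 for Rab5a and 0.69 for Atg3, had a median of 0.19 over the 38 other genes of this set and a range from -0.90 for Actb, which encodes cytoplasmic actin, to 1.59 for Ppara, a nuclear receptor that turns on fatty acid oxidation.

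**Figure D3:**
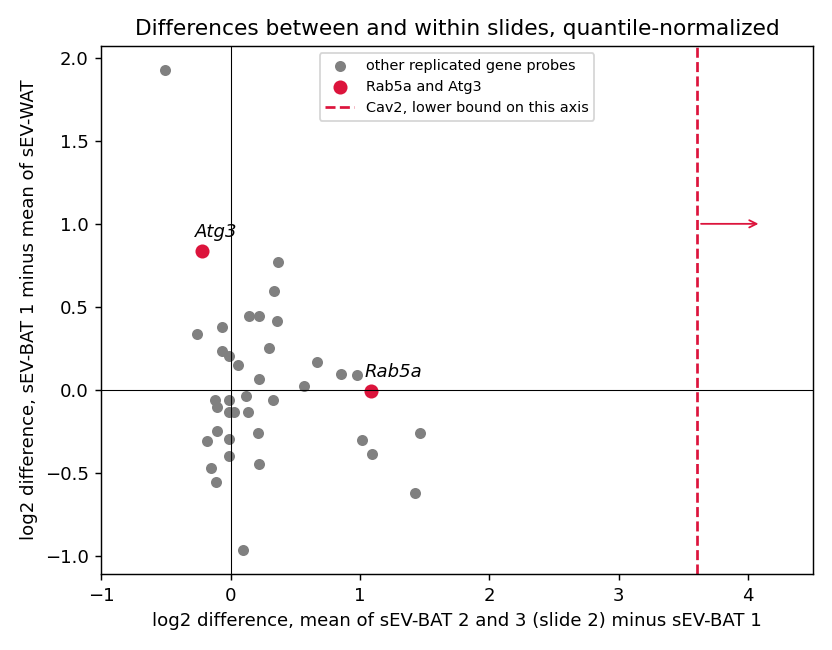
Each point is 1 of the 40 gene probes with 10 spots that were well above background throughout. The horizontal axis gives the mean of sEV-BAT 2 and 3 minus sEV-BAT 1, and the vertical axis sEV-BAT 1 minus the mean of sEV-WAT, both as log2 differences after quantile normalization. The dashed line marks the lower bound of Cav2 on the horizontal axis, 3.61, to the right of all points (Cav2 has no measured vertical value), Rab5a lies at 1.09 with no difference above 0 on slide 1 (-0.01), and Atg3 lies at -0.22 and 0.83.

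The spots of one array share its RNA and measure the technical error alone. The SD over the spots of an array lay between 0.121 and 0.23 for Rab5a and between 0.0559 and 0.305 for Atg3 on the log2 scale. The SD between the arrays of a group was pooled over both groups after quantile normalization. For Rab5a it was 0.456 (0.64 in sEV-BAT and 0.06 in sEV-WAT), with a median SD between spots of 0.134. For Atg3 it was 0.183 (0.20 and 0.17), with a median SD between spots of 0.129. The SD between spots is that of single spots without normalization, whereas an array value is a mean over spots. The spread of Rab5a between the sEV-BAT arrays was therefore larger than its spots showed within an array. Over the 38 other gene probes with 10 spots that were detected in this way throughout, the median SD was 0.072 between spots and 0.164 between arrays. The 10 spots of Cav2, with an SD of 0.124 on sEV-BAT 2 and 0.0785 on sEV-BAT 3, were as close to each other as those of the other two genes.

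**Figure D4:**
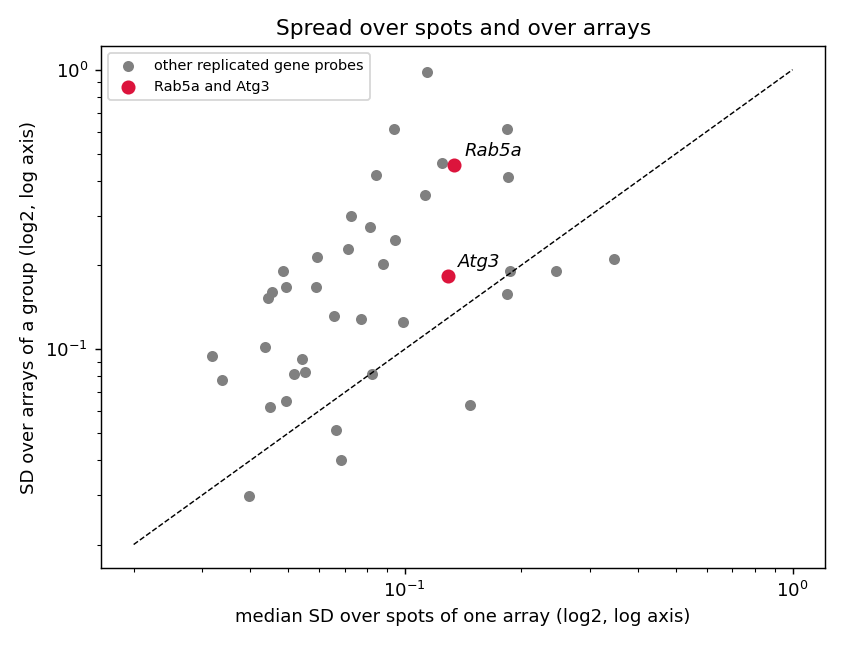
Each point is 1 gene probe with 10 spots and well above background throughout. Both log axes are in log2 units. The horizontal one gives the median SD between the single spots of an array, without normalization. The vertical one gives the SD between the arrays of a group, pooled over both groups after quantile normalization. The dashed line marks equal values. Rab5a lies at 0.134 and 0.456 and Atg3 at 0.129 and 0.183, both above the line.

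The spots of each gene are spread over the array and keep the same place on all 6. Those of Cav2 lay in array rows 33 to 318, those of Rab5a in rows 7 to 356 and those of Atg3 in rows 82 to 345. Cav2 was well above background on both arrays of slide 2 and on no array of slide 1 at each of its 10 positions. The positions of Rab5a and Atg3 were compared one by one without normalization and with outlier spots included. The 3 sEV-BAT values were above the 3 sEV-WAT values at 10 of 10 positions for Atg3, with differences from 1.34 to 1.68, and at 9 of 10 for Rab5a, with differences from 0.23 to 1.65. The exception was the position of a single outlier spot on sEV-WAT 2, described below. Without normalization the array values of 70.1% of all probes compared had this order, as did 42 of the 47 other gene probes with 10 spots. The positions share the same 6 arrays and do not replicate the groups. At the 7 positions of Rab5a and the 8 of Atg3 with no outlier spot on any array, the differences ranged from 1.34 to 1.55 and from 1.35 to 1.68, with no overlap. The mean of sEV-BAT 2 and 3 minus sEV-BAT 1 ranged over all 10 positions from 0.81 to 1.27 for Rab5a and from -0.62 to -0.05 for Atg3. Its sign was thus the same at all positions of each of these 2 genes. The local background of these spots was between 12 and 20 on all arrays. Of the 60 spots of each gene, the software marked 4 of Cav2, 3 of Rab5a and 3 of Atg3 as outliers. The one that broke the order of Rab5a was a non-uniform spot with an intensity of 281 on sEV-WAT 2. With outlier spots kept the difference was 0.60 for Rab5a, 2.75 for Cav2 and 0.68 for Atg3.

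The probes whose values ran most like those of the 3 genes were sought among the 45 other named gene probes with 10 spots, by Pearson's r over the 6 arrays after quantile normalization. For Cav2 these were Rab5a (r = 0.995), Uhrf1bp1l (r = 0.987) and H2-Q7, a class I histocompatibility gene (r = 0.986). No rank correlation is given for Cav2, because 4 of its 6 values are below background. For Rab5a they were Cav2, Cpt1a (r = 0.988, Spearman's rho = 0.943) and H2-Q7 (r = 0.987, rho = 0.6). Cpt1a encodes the carnitine palmitoyltransferase that admits fatty acids to mitochondria. These correlations rest on the 2 arrays of slide 2, which stood above the other 4 in each of these genes. Since the other 4 values of Cav2 are below background, its r only restates this height, and the order of its nearest genes has no weight. The log2 values of Cpt1a, for instance, were 6.46 and 6.33 on sEV-BAT 2 and 3, 5.83 on sEV-BAT 1, and 5.91, 5.81 and 5.70 in sEV-WAT.

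For Atg3 the nearest were Taf1a, a subunit of the RNA polymerase I initiation factor (r = 0.893, rho = 0.829), Hspb7, a small heat shock protein (r = 0.879, rho = 0.771) and the olfactory receptor gene Olfr1307 (r = 0.842, rho = 0.6). All 3 were higher on each sEV-BAT array than on each sEV-WAT array. The log2 values of Hspb7 were 6.01, 5.87 and 6.01 in sEV-BAT and 5.62, 5.67 and 5.60 in sEV-WAT. Atg3 itself had r = 0.492 with Cav2, and r = 0.536 and rho = 0.2 with Rab5a. The points of all these correlations are the same 6 arrays, which share their slides and normalization.

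Of the pathways to which the 3 genes belong, the files named no other member. This held for the 11 genes listed for caveolae, the 23 for early endosomes and the RAB5 cycle, and the 15 for the conjugation step of autophagy. None of 17 genes listed for vesicle formation and release was named either. How caveolae, early endosomes or autophagy as a whole were represented in the sEV RNA was therefore not analysed here.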

How the data were processed

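The 6 arrays were scanned and extracted by the authors with Agilent Feature Extraction 11.0.1.1, per the file headers. The authors deposited for every spot a background-subtracted intensity that had not been scaled across arrays, together with detection and outlier flags. A deposited table of quantile-normalized log2 values holds none of the 3 probes and was not used here. No column of other samples was present (0).

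Log2 of the intensity was taken, spots that the software flagged as non-uniform or population outliers were dropped, and the spots of a probe were averaged. The arrays were then quantile-normalized with limma 3.58.1 in R 4.3.3, the normalization named in the methods. Of 62976 spots per array 1439 were controls. Probes that were well above background (in most retained spots) on 3 or more of the 6 arrays were fitted with limma (linear model, moderated statistics), and p-values were adjusted by Benjamini-Hochberg over all 54443 probes. The script was tested on simulated data. Figures and spot summaries used Python 3.11.15, pandas 2.3.3, numpy 2.4.6 and matplotlib 3.10.9.

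The 3 genes, the gene lists and the tests were chosen with earlier results of these data known. The genes named beside them are, for each of the 3, those with the highest Pearson's r. Names of 46 of the 50 gene probes with 10 spots came from RefSeq accessions without versions in a table of GRCm38.p6. The design named in the file headers uses another build (mm9), so no position of a probe is given, and the promoter coordinates are those of RefSeq.

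Alternatives changed the normalization (none, 75th percentile, median of the other 47 gene probes with 10 spots), the background correction (normexp with an offset of 50), the treatment of spots, the filter and the test, added slide or replicate number as a block, or left out each array in turn. Normexp used the median signal and median local background of each spot. One scan held sEV-WAT 2 alone, which leaving that array out covers. The arrays limit the precision by their number, 3 per group.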

Additional observations from a re-analysis of the deposited data

How the results depend on the processing

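The difference of Atg3 kept its direction in all 18 alternatives, and those of Cav2 and Rab5a in 16 of 18 each. For Cav2 the 16 include comparisons within slide 1, where all its values are below background, so this count overstates the agreement. The 2 exceptions, slide as a block and within slide 1, are the same comparison, since slide 2 held sEV-BAT alone. In both, Cav2 was at -0.38 and Rab5a at -0.0077, the latter with a standard error of 0.16 in the block fit. The values of Cav2 within slide 1 are all below background and have no order. No setting within slide 1 therefore tells its direction, whether its difference there is negative or, as with the other scalings below, positive. Leaving out 1 array at a time gave 2.02 to 4.72 for Cav2, 0.47 to 1.08 for Rab5a and 0.61 to 0.80 for Atg3. The lowest value of Cav2 was without sEV-BAT 2 and the highest without sEV-BAT 1. Without normalization Rab5a was at 1.43 and Atg3 at 1.48, and with the 75th percentile subtracted Atg3 was at 0.99. With normexp, whose offset compresses dim values, Cav2 was at 0.88 and Atg3 at 0.20. Within slide 1 and with other scalings, chosen after seeing the data, Cav2 and Atg3 were at 0.81 and 1.65 without normalization and at 0.33 and 1.17 with the 75th percentile subtracted. With the median of the other gene probes subtracted Cav2, Rab5a and Atg3 were at 0.26, 0.22 and 1.10.

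Over all probes, 605 were higher and 630 lower in sEV-BAT at the study thresholds, and 4141 were past the adjusted p. Without normalization these counts were 8882, 48 and 35568. The 75th percentile gave 1505 higher and 379 lower (79.9% higher against 49%), and the median of the other gene probes 1724 lower (31.2% higher) and 1818 adjusted. These 3 scalings moved the median difference over all probes to 0.615, 0.129 and -0.197, from -0.018. Normexp gave 189, 337 and 7319 (35.9% higher). The slide block gave 214 higher (33.4% of calls) and 0 adjusted, while 6405 probes had an unadjusted limma p under 0.05. Leaving out 1 array gave 382 to 1410 higher, 387 to 1109 lower and 0 to 4502 adjusted. The adjusted count was 0 without sEV-BAT 3 or any 1 sEV-WAT array, while 11243 to 13728 probes had an unadjusted p under 0.05. Without sEV-BAT 1 or 2, 1241 and 1410 were higher. The adjusted count was 1491 with no filter and 62 by the methods' t-test. The causes of these shifts were not tested.

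With replicate number as a block the differences of the 3 genes were 3.02, 0.72 and 0.69, as without it, with standard errors of 1.20, 0.30 and 0.14. It gave 0 probes past the adjusted p, while 12499 had an unadjusted p under 0.05. Arrays with the same number had correlations of their deviations from the group means of -0.25, -0.09 and 0.22 for replicates 1, 2 and 3. Not every correlation was over 0.1, so the numbers were not taken to pair the samples, and whether same-numbered pools share mice is not given in the sources used here.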
